A study of Mus musculus with 7 samples.

Results

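A set of 10 genes of antibody production were followed in 7 libraries of sorted brain microglia, out of 50686 genes measured. The 10 genes were 6 antibody constant regions (Igkc, Igha, Ighm, Ighg1, Ighg2b and Ighg2c), the plasma cell genes Jchain and Mzb1, and the B cell receptor genes Cd79a and Cd79b. They were chosen by name, and the choice was made on measured values, since several of them had stood apart between old and young mice in the expected counts of these same libraries. Their differences between ages are therefore given as a description, without a test. Of the 10 genes, 8 passed the filter, for which 1 library or more had to hold over 10 expected counts, and Ighg1 and Ighg2c did not, with a count of 0 in every library.

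All mice were male C57BL/6, without a genetic modification or a drug, and all had a right middle cerebral artery occlusion of 45 min followed by reperfusion. Microglia of the forebrain were sorted 4 days after ischemia as CD11b+ CD45low cells that took up the lipid dye Bodipy, 1 mouse per library. The young group held 4 mice of 3 to 4 months (14C, 18C, 23C and 29C) and the old group 3 mice of 21 to 22 months (2posI, 3posI and 4posI). No mouse without ischemia belonged to these groups, and no stain for a lymphocyte was part of the sort, which selected myeloid cells by a gate on CD11b and CD45.

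Antibodies are made of heavy and light chains. Each chain joins a variable segment, which binds antigen, to a constant region, which for the heavy chain sets the isotype (Ighm for IgM, Igha for IgA, the Ighg genes for IgG). A B cell carries its antibody in the membrane as the B cell receptor together with the signalling chains Cd79a and Cd79b. A plasma cell secretes it with the help of Mzb1, a chaperone of the endoplasmic reticulum, and Jchain, which joins IgM or IgA units into polymers. Constant genes can also be transcribed before any rearrangement, which gives germline transcripts without a variable segment.

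Total expected counts were 36574083 to 53002386 per library. The 10 listed microglia genes had summed levels of 21700 to 32400 counts per 1000000 counts (CPM) in young and 11200 to 25300 CPM in old mice, and each of the 10 had more than 100 counts in every library. The lowest sum was that of 3posI, which also had the highest sum of the 10 monocyte genes, 3330 CPM against 218 to 621 CPM in the other 6 libraries. This library stood apart for that reason, and values without it are given where it changed a call, a direction or a listed level by much. In RNA of bulk sorted cells, fewer cells of a type and less RNA per cell cannot be told apart.

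The sequences in which the antibody transcripts of the old mice differed come first. In 2posI and 3posI most counts of variable segments fell on 1 kappa and 1 heavy segment, and those segments were not the same in both mice. The kappa segments were Igkv6-15 (chr6:70406469-70406588, minus strand) in 2posI and Igkv3-7 (chr6:70607917-70608036, plus strand) in 3posI. The lines give the last 120 coding bases of each, from GENCODE vM21 on GRCm38, with capitals where the 2 segments differ.
Igkv6-15: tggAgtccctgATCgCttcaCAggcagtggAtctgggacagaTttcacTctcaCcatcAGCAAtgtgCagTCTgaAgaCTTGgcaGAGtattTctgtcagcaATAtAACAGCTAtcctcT
Igkv3-7: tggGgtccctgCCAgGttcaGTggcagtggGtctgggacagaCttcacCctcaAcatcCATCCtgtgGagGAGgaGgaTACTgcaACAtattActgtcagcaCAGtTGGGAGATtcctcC
Over the 120 bases 79 were identical and 41 differed. The heavy segments were Ighv1-72 (chr12:115757984-115758103, minus strand) in 2posI and Ighv1-52 (chr12:115145487-115145606, minus strand) in 3posI, shown in the same way because reads of such close relatives can be split between them.
Ighv1-72: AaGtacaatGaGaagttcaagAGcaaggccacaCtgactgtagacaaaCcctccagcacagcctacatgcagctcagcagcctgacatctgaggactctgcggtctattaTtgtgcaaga
Ighv1-52: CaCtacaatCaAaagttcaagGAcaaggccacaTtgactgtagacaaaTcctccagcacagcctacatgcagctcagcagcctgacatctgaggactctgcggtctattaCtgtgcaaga
Here 111 of the 120 bases were identical and 9 differed, and over the 351 aligned coding bases the identity was 91.5%. These are reference sequences, and the bases of the mice's own rearranged genes were not read here.

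The second set of sequences separates secreted from membrane antibody. Each heavy chain gene can end in a secreted tail or in a membrane exon, and the lines give the last 30 shared coding bases in lower case followed in capitals by the bases that only 1 form has. All 4 lie on the minus strand of chromosome 12.
Igha-201, secreted: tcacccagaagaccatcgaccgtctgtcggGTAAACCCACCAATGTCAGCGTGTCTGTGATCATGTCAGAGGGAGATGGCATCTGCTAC
Igha-202, membrane: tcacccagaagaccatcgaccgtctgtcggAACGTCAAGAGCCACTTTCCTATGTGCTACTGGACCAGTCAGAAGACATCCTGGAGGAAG
Ighm-201, secreted: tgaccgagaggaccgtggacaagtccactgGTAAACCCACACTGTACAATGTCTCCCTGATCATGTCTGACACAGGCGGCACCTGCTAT
Ighm-202, membrane: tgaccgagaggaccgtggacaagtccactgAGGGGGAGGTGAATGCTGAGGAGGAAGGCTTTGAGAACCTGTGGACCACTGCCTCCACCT
The secreted tails add 59 coding bases in both genes, whereas the membrane ends add 194 coding bases in Igha and 122 in Ighm, of which 60 are shown. The authors' transcript-weighted gene length moves between the lengths of these forms, and the share of each form was taken from it.

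The light chain and IgA genes were high in 2 old mice. Igkc (chromosome 6, 70726435 to 70726966, plus strand), the constant region of the kappa light chain, had expected counts of 0, 0, 6 and 1 in the young libraries 14C, 18C, 23C and 29C, and of 1514, 306 and 35 in the old libraries 2posI, 3posI and 4posI. All 3 old libraries exceeded all 4 young ones, and the old libraries differed among themselves by more than the young ones did. The mean level was 17.9 ± 23.8 CPM (SD, n = 3) in old and 0.0348 ± 0.0562 CPM (SD, n = 4) in young mice, and the pooled counts gave a ratio of 419 with a 95% counting interval of 203 to 1040. The log2 ratio of means was 8.27 with all libraries (1 count added to each mean), 6.22 without 2posI and 8.64 without 3posI. Intervals of this kind and limits from a count of 0 cover counting error only, and no molecular identifiers were named for these libraries. The gene overlaps the annotated Gm30211, and the libraries carry no strand.

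Igha (chromosome 12, 113254830 to 113260236), the constant region of IgA, had counts of 1354 in 2posI and 374 in 3posI, and of 0 in 4posI and in all 4 young libraries. The old and young groups thus overlapped at 0. A count of 0 allows up to 3 counts, or 0.0588 to 0.0671 CPM in the young libraries and 0.0648 CPM in 4posI. The old mean was 16.6 ± 21.1 CPM (SD, n = 3), at least 261-fold higher than the limit of 3 counts per young library. Without 3posI the log2 ratio of means was 9.78 and without 2posI it was 7.70, against 9.49 with all libraries.

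In the same 2 libraries the IgA transcripts were almost all of the secreted form. The secreted transcript took 99.7% of Igha in 2posI and 99.8% in 3posI, as computed from the transcript-weighted length of 1104.61 and 1102.49 bases, where the secreted form has 1100 and the membrane form 2540. No share could be computed in the other 5 libraries, which had no Igha count.

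Jchain (chromosome 5, 88519809 to 88527891), which links antibody units, followed Igkc and Igha. Its counts were 1, 1, 6 and 0 in the young libraries and 285, 70 and 3 in 2posI, 3posI and 4posI. The 2 high libraries were again 2posI and 3posI, and 4posI lay within the range of the young mice. Mean levels were 3.45 ± 4.45 CPM (SD, n = 3) in old and 0.0404 ± 0.0525 CPM (SD, n = 4) in young mice.

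Mzb1 (chromosome 18, 35647267 to 35649367), the chaperone of plasma cells and marginal zone B cells, had counts of 0, 0, 0 and 3 in the young libraries 14C, 18C, 23C and 29C. It had 15 counts in 2posI, 8 in 3posI and 11 in 4posI, so that all 3 old libraries lay above all young ones, at low counts. The ratio of pooled counts was 17.9 with a counting interval of 5.64 to 91.3. The log2 ratio of means was 3.02 with 1 count added and 1.64 with 5 counts added, since few counts carry it. Mzb1 overlaps Spata24 in the annotation, which had 72 to 171 counts in these libraries, and reads of overlapping genes cannot be assigned by strand here.

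The plot of the 10 genes by library shows the same 2 old mice at the top for Igkc, Igha and Jchain.

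**Figure D1:**
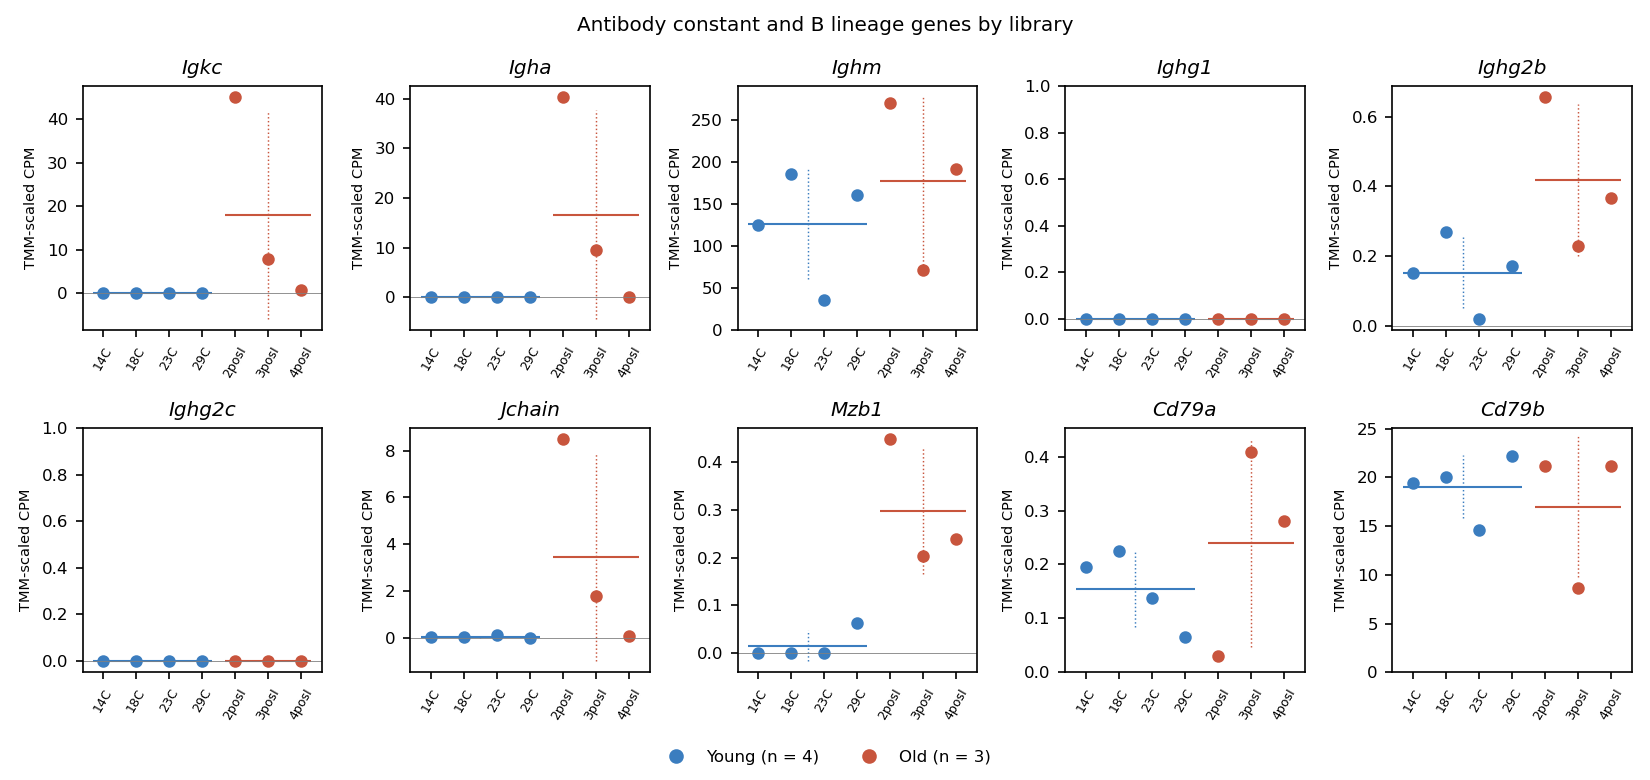
Level of each of the 10 genes in every library, as TMM-scaled CPM (linear axes that include 0), for 4 young (blue) and 3 old (red) mice; horizontal lines are group means and dotted lines the mean ± 1 SD. Igkc, Igha and Jchain reached 45.1, 40.3 and 8.49 CPM in 2posI, Ighm lay between 35.4 and 270 CPM in all libraries, and Ighg1 and Ighg2c were at 0.

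Ighm, the constant region of IgM (chromosome 12, 113418558 to 113422730), was abundant at both ages. Its counts were 5762, 8255, 1803 and 7474 in the young libraries and 9046, 2788 and 8902 in the old ones. The lowest young library was 23C and the lowest old library 3posI, and the ages overlapped. Means were 126 ± 65.5 CPM (SD, n = 4) in young and 178 ± 99.9 CPM (SD, n = 3) in old mice, and the log2 ratio of 0.49 ranged from 0.06 to 0.87 when 1 library was left out.

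The IgM counts came with hardly any variable segment in 5 libraries. Heavy variable segments had 0 counts in each young library and 1 count in 4posI, or at most 0.363 to 1.66 per 1000 Ighm counts in young mice by the limit of 3 counts. In 2posI and 3posI they had 33.9 and 36.9 counts per 1000 Ighm counts. The same segment counts were 0.227 and 0.275 per Igha count, and counts by gene cannot assign a segment to Ighm or to Igha. Reads of rearranged or mutated segments may also be lost on the reference segments, in any library. The 5 libraries without Igha thus had IgM constant counts nearly without variable segment counts. The membrane form took 63.6% to 72.8% of Ighm in young and 70.5% to 76.9% in old mice, and these ranges overlapped, in contrast to the secreted form of Igha given above.

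Ighg2b, an IgG constant region (chromosome 12, 113302965 to 113307933), had 7, 12, 1 and 8 counts in the young and 22, 9 and 17 in the old libraries. Means were 0.153 ± 0.102 CPM (SD, n = 4) and 0.418 ± 0.217 CPM (SD, n = 3), and the ages overlapped through 3posI. Ighg1 and Ighg2c, the other IgG genes of the 10, had no count in any library, which allows up to 0.0588 to 0.0894 CPM. No fold was computed for them.

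Isotype shares showed the 2 mice again. Of all counts on the 8 heavy chain constant genes, Igha made up 12.9% in 2posI (95% exact interval 12.2% to 13.5%) and 11.7% in 3posI (10.6% to 12.8%), and 0 of 9045 counts in 4posI, which allows a share of up to 0.0332%. Ighm made up 85.9% and 86.9% in these 2 libraries and 98.1% to 98.4% in 4posI and the young libraries. Per length, as shares of TPM (transcripts per 1000000, corrected for length), Igha made up 18.2% in 2posI and 16.6% in 3posI. Ighd, the IgD constant region next to Ighm, had 29 to 144 counts in young and 37 to 126 in old mice (log2 fold change 0.07, SE 0.60, adjusted p = 0.961, edgeR). Iglc2, the lambda light chain gene with the most counts, had 1 count summed over the young and 4 summed over the old libraries, and Ighg3, Ighe, Iglc1, Iglc3 and Iglc4 had none.

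On the length-corrected scale, Ighm was the highest of the 10 genes in every library, at 31.7 to 167 TPM in young and 57.0 to 206 TPM in old mice. Cd79b came next in the young mice (16.9 to 24.1 TPM) and in 4posI (25.0 TPM). In 2posI and 3posI the next was Igkc, at 114 and 20.6 TPM, followed by Igha at 46.8 and 11.5 TPM and then Cd79b at 21.3 and 9.03 TPM.

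Variable segments had counts almost only in the libraries with Igha. Of 160 annotated kappa segments, 4 had counts in 2posI, summing to 817, and Igkv6-15 held 96.6% of them (95% exact interval 95.1% to 97.7%). In 3posI 12 segments had counts, summing to 155, and Igkv3-7 held 85.8% (79.3% to 90.9%). The 4 young libraries had 1 kappa segment count in all, in 23C, and 4posI had 7 counts in 4 segments, led by Igkv3-2 with 3. The kappa segments printed above are thus each the leading segment of 1 mouse, with no count in the other.

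The heavy segments had the same pattern. Of 185 annotated heavy segments, Ighv1-72 held 98.3% of 307 counts in 2posI (96.2% to 99.5%) and Ighv1-52 held 93.5% of 103 counts in 3posI (86.5% to 97.2%). Ighv1-72 had 1.2 counts in 3posI, and Ighv1-52 none in 2posI. The next segments were small. Igkv4-50 had 25 counts and Ighv1-62-3 had 3.3 in 2posI, while Igkv10-96 had 6, Igkv3-5 had 3.1, Ighv1-61 had 2.8 and Ighv1-74 had 1.5 in 3posI. Of the 3 lambda segments only Iglv1 had counts, 6 in 2posI.

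The plot of variable segment counts shows how much of each library's sum lay on 1 segment.

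**Figure D2:**
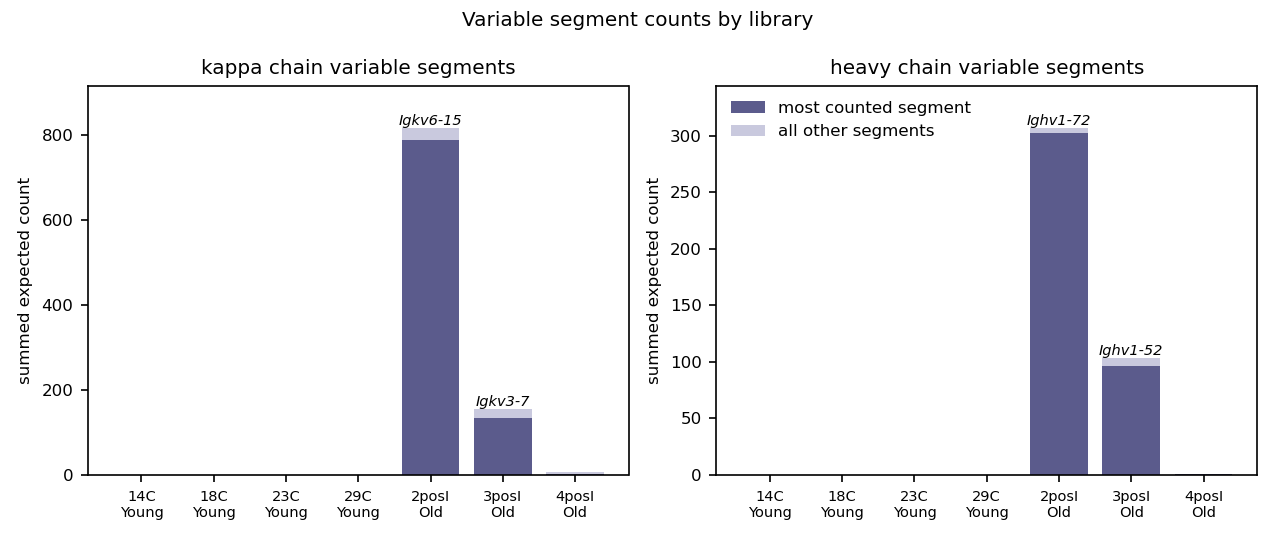
Summed expected counts of kappa (left) and heavy (right) variable segments in each library, with the most counted segment of the library in dark and all others in light; the bar starts at 0 and the leading segment is named where the sum exceeds 50. In 2posI Igkv6-15 held 789 of 817 and Ighv1-72 302 of 307 counts, in 3posI Igkv3-7 held 133 of 155 and Ighv1-52 96.3 of 103, and the young libraries had 1 kappa and 0 heavy counts together.

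The proportions of the antibody transcripts can be set side by side in both mice. For each count of Igkc there were 0.894 counts of Igha in 2posI and 1.22 in 3posI, 0.188 and 0.229 counts of Jchain, and 0.540 and 0.507 counts of kappa variable segments. For each count of Igha there were 0.227 and 0.275 counts of heavy variable segments. These are ratios of counts, not corrected for gene length, and serve only to set one library beside the other. Heavy joining segments had 0 to 7 counts in every library and no diversity or kappa joining segment had any.

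The B cell receptor genes did not follow the antibody genes. Cd79b, a signalling chain of the receptor (chromosome 11, 106311341 to 106314762), had 896, 896, 745 and 1033 counts in young and 713, 337 and 984 in old libraries. The lowest was 3posI and the ages overlapped. Means were 19.1 ± 3.21 CPM (SD, n = 4) and 17.0 ± 7.29 CPM (SD, n = 3). The log2 ratio was -0.16 with all libraries and 0.16 without 3posI, so its direction rested on that library.

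Cd79a, the partner chain of Cd79b (chromosome 7, 24897381 to 24902197), had expected counts of 8.53, 10, 7.32 and 3 in young libraries and of 1, 15.67 and 13 in 2posI, 3posI and 4posI. The library with the most Igkc, 2posI, had the lowest Cd79a. Means were 0.155 ± 0.0703 CPM (SD, n = 4) and 0.240 ± 0.193 CPM (SD, n = 3), and the log2 ratio of 0.56 was 0.00 without 3posI.

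Set against each other, the plasma cell genes Jchain and Mzb1 made up 0.11% to 0.791% of the counts on Jchain, Mzb1, Cd79a and Cd79b in the young libraries. They made up 29.6% in 2posI (95% exact interval 26.8% to 32.5%), 18.1% in 3posI (14.6% to 22.1%) and 1.38% in 4posI (0.759% to 2.31%). With all genes of the wider B cell and plasma cell lists in their place the share was 56.5% to 59.2% in young and 49.7% to 65.9% in old libraries, since those lists are dominated by genes with high counts in every library.

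Across the 10 genes, 7 had a higher mean in old mice and 1, Cd79b, a lower one. Of the 8 tested genes 2 (Igkc and Mzb1) had every old library above every young one, where 8.67% of the 17559 genes tested did, and none had every old library below, where 9.07% did. By edgeR's test with an adjusted p under 0.05, 1 of the 8 (Igkc) was higher in old mice, where 0.57% of all genes tested were, and 0 were lower, where 0.233% were. With limma-voom 0 of the 8 were called and with DESeq2 3 (Igha, Igkc and Jchain), and the edgeR call of Igkc was lost without 2posI or without any 1 of the 4 young libraries. The genes were picked on this contrast, so these counts are printed for completeness and nothing is read from them.

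The wider lists held other antibody and B lineage genes, and also antibody receptors, genes of class switching and signals that act on B cells. None was among the 10, but they were listed with earlier results of these data known. Of these 85 genes 56 were tested. Of the 56, 2 passed the threshold, 1 higher and 1 lower in old mice, against 0.803% of all genes tested. Both came from the list of BAFF and APRIL with chemokines. The median log2 fold change of the 56 was 0.14, and that of all genes tested was -0.01. At an unadjusted p under 0.05 there were 15 of the 56, where 18.9% of all genes tested had one.

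Both genes that passed are chemokines that guide B cells. Cxcl13, which draws B cells into follicles, had 1.34, 0.895, 0.883 and 4.15 CPM in the young libraries and 25.4, 20.8 and 27.7 CPM in the old ones. All 3 old mice lay above all young mice, 4posI included. Cxcl13 rose by 3.76 log2 units with an SE of 0.54 (edgeR, adjusted p = 0.0280). The call was lost without 14C, 18C, 23C, 2posI or 4posI (adjusted p = 0.0547 to 0.121, edgeR) and held without 29C or 3posI (adjusted p = 0.00294 and 0.0298, edgeR).

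Cxcl12, which retains plasma cells and B cell precursors in the bone marrow, had 6.80, 5.46, 6.47 and 8.13 CPM in young and 3.04, 3.09 and 2.79 CPM in old libraries. Here all old mice lay below all young ones. Cxcl12 fell by 1.18 log2 units with an SE of 0.21 (edgeR, adjusted p = 0.0493). The call was lost when any 1 of the 7 libraries was left out (adjusted p = 0.0686 to 0.166, edgeR), with limma-voom (adjusted p = 0.0587) and with chromosomes X, Y and M kept (adjusted p = 0.0505, edgeR).

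The survival factors of B cells and plasma cells did not pass with all 7 libraries in edgeR. Tnfsf13b, the factor BAFF, had 12.7 to 21.6 CPM in young mice and 51.7, 16.9 and 58.1 CPM in old mice, with 3posI among the young values (log2 fold change 1.20, SE 0.38, adjusted p = 0.155, edgeR). It passed without 3posI, at a log2 fold change of 1.58 (adjusted p = 0.0245, edgeR), and with DESeq2 on all libraries (adjusted p = 0.0274), and did not pass without any 1 of the other 6 (adjusted p = 0.236 to 0.328, edgeR). Tnfsf13, the factor APRIL, had 6.00 to 17.6 CPM in young mice and 14.9, 100 and 11.4 CPM in old mice, so that 3posI alone stood out. Its log2 fold change of 1.91 became 0.23 when 3posI was left out (edgeR, adjusted p = 0.220 and 0.832). Of their receptors, Tnfrsf13b and Tnfrsf17 had log2 fold changes of -0.02 and 0.11 (adjusted p = 0.955 and 0.951, edgeR). The other listed receptor, Tnfrsf13c, had 0 to 2 counts in young and 1 to 5 in old libraries, too few to be tested.

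The plot of these 4 signals by library places each old mouse beside the young ones.

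**Figure D3:**
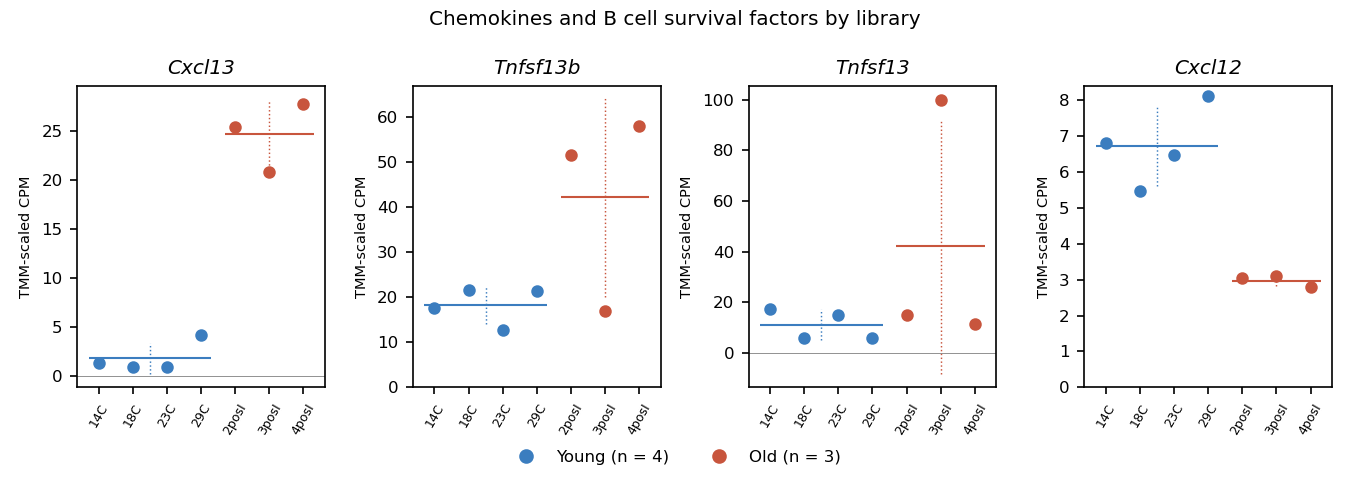
Levels of Cxcl13, Tnfsf13b, Tnfsf13 and Cxcl12 in every library, in TMM-scaled CPM (linear axes from or below 0), for 4 young (blue) and 3 old (red) mice; horizontal lines are group means and dotted lines the mean ± 1 SD. Cxcl13 was 20.8 to 27.7 CPM in old and 0.883 to 4.15 CPM in young mice, and Cxcl12 2.79 to 3.09 CPM in old and 5.46 to 8.13 CPM in young mice.

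None of the 28 genes of the B cell list passed the threshold (16 tested with edgeR, 2 at an unadjusted p under 0.05, 0 with limma-voom and 0 with DESeq2), and their median log2 fold change was 0.06. Some genes that define B cells were at or near 0, and others were not. Ms4a1, which encodes CD20, had 0 to 19 counts, and Pax5, the factor that fixes B cell identity, had 0 in every library. Ebf1, another B cell factor, had 8 to 95 counts in young and 40 to 57 in old libraries. Spib and Siglecg had every old library above every young one in CPM (8.67% of all genes tested), and 0 genes had every old library below (9.07%). Spib had 0 to 3 counts in young and 10, 27 and 10 in old libraries, and passed the filter only through 3posI. Siglecg had 0.0588 to 1.17 CPM in young and 1.52, 1.51 and 2.55 CPM in old libraries. In all, 14 of the 28 genes had fewer than 30 counts in every library. The summed level of the list was 1160 to 1410 CPM in young and 901 to 1580 CPM in old mice.

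That sum was carried by 11 genes with more than 100 counts in every library. The highest were Cd72, a coreceptor, at 396 ± 107 CPM in young and 450 ± 179 CPM in old mice, Cd37, a tetraspanin, at 288 ± 26.6 and 272 ± 66.0 CPM, and Blnk, an adaptor of receptor signalling, at 197 ± 11.4 and 222 ± 61.1 CPM (SD, n = 4 and n = 3). None of these 3 passed the test (adjusted p = 0.791, 0.847 and 0.663, edgeR).

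The plasma cell list had 17 of 18 genes tested and 0 past the threshold with edgeR (4 at an unadjusted p under 0.05, 0 with limma-voom and 3 with DESeq2), with 9 fold changes above 0 and 8 below and a median of 0.01. Its most abundant genes serve protein folding and quality control in the endoplasmic reticulum of most cells. Edem1 had 476 ± 106 CPM in young and 344 ± 39.2 CPM in old mice, Pdia4 271 ± 11.9 and 215 ± 14.5 CPM, and Sdf2l1 246 ± 19.5 and 271 ± 15.9 CPM (SD, n = 4 and n = 3, adjusted p = 0.237, 0.173 and 0.570, edgeR). Edem1 and Pdia4 had every old library below every young one (9.07% of all genes tested), and 2 genes had every old library above (8.67%). Of these, Slamf7 had 2.67 to 9.12 CPM in young and 10.9, 83.6 and 14.5 CPM in old mice. Creld2 had 65.7 to 88.4 and 93.1, 136 and 105 CPM (adjusted p = 0.117 and 0.131, edgeR). Sdc1, the surface marker CD138, was named after its values were seen. Sdc1 had 29 to 137 counts in young mice and 17, 801 and 47 in 2posI, 3posI and 4posI, with its lowest value in the library that had the most Igkc. Its log2 fold change was 2.59 with all libraries and -0.66 without 3posI (adjusted p = 0.266 and 0.669, edgeR).

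Genes of B cell precursors, with 4 of 10 tested, and of class switching, with 6 of 8 tested, had 0 calls with edgeR (3 and 1 at an unadjusted p under 0.05, 0 and 0 with limma-voom, 2 and 0 with DESeq2). Rag1 and Igll1, needed to build and test the first receptor, were at 0 in every library. The most abundant of these lists were Cd93, Sox4, Il7r, Bcl6, Apex1 and Trp53bp1, and none passed (adjusted p = 0.131 to 0.812, edgeR). Cd93 had 251 CPM in 3posI and 5.74 to 36.4 CPM in the other libraries, and Il7r 48.3 CPM against 4.09 to 16.1 CPM. The 2 genes called with DESeq2 were Il7r and Lef1. Lef1 had 1.16 to 2.67 CPM in young and 1.04, 0.639 and 0.734 CPM in old libraries.

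Receptors that bind antibodies were high at both ages. Fcer1g, the shared signalling chain, had 1930 ± 211 CPM in young and 2430 ± 386 CPM in old mice, Fcgr3 1300 ± 311 and 1530 ± 576 CPM, and Fcgr2b, the inhibitory receptor, 365 ± 37.2 and 427 ± 41.0 CPM (SD, n = 4 and n = 3). All 7 tested members of the list had a fold change above 0, with a median of 0.33, and 0 passed (1 at an unadjusted p under 0.05, 0 with limma-voom and 0 with DESeq2). Pigr, which carries polymeric IgA and IgM across epithelia, and Fcamr were at 0 in every library.

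Markers of other blood cells were measured beside the antibody genes. Of 70 listed genes of T cells, NK cells, neutrophils, monocytes, dendritic cells, red cells and microglia, 61 were tested and 0 passed with edgeR, with 27 at an unadjusted p under 0.05 (18.9% of all genes tested) and a median log2 fold change of 1.11. With limma-voom 1 passed and with DESeq2 8 passed. The part of these cells in the values of the 10 genes was not tested.

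The T cell list had the highest median, 4.02 over 15 tested genes, of which 12 had an unadjusted p under 0.05, against the same 18.9%, and 0 passed. Of the 15, 10 had fewer than 30 counts in every library, and several, such as Cd3g, passed the filter only through old libraries. For those the filter itself favoured a fold change above 0, so nothing is read from the median or from the 12. These genes are also part of the count and median over all markers of other blood cells given above. Without 3posI the median was 3.55 over 14 tested genes. The summed level of the list was 7.51 to 16.1 CPM in young and 12.5 to 17.6 CPM in old mice, carried by Cd4 and Cd5, which had 57 to 518 and 87 to 288 counts. Cd3e, a signalling chain of the T cell receptor named after its values were seen, had 0, 0, 1 and 0 counts in young mice and 0, 22 and 21 in 2posI, 3posI and 4posI. Lck, a kinase of T cell receptor signalling, had 0.303, 0.470, 0.471 and 0.129 CPM in young and 1.01, 0.997 and 1.01 CPM in old libraries, so that all old mice, 2posI included, lay above all young ones (adjusted p = 0.162, edgeR). Cd8a, Cd8b1 and Bcl11b, also named after their values were seen, had 10, 14 and 7 counts in 2posI and 0 to 2 in each young library. In 2posI, the library with the most Igkc, the T cell markers were thus uneven. Cd3e, Cd3d, Cd3g, Cd6, Themis, Trbc2 and Cd247 were at 0, and these 4 were above the young range. Trac and Trbc1 were above it in CPM as well, at only 4 and 2 counts, and Cd4 barely (10.3 CPM against 10.2 CPM in 23C).

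Monocyte genes had a median of 2.85 with all libraries and of 0.52 without 3posI, and their sum was highest in 3posI. Without 3posI 1 of the 10, Ly6c2, passed with edgeR. Ccr2, the receptor that brings monocytes into tissue, had 231 CPM in 3posI and 2.06 to 19.3 CPM in the other 6 libraries, 2posI being at 14.1. Neutrophil genes summed to 1.57 to 142 CPM in young and 40.7 to 108 CPM in old mice. Dendritic cell genes summed to 8.51 to 15.2 CPM in young mice and to 20.9, 74.2 and 19.0 CPM in 2posI, 3posI and 4posI. NK cell genes summed to 0.452 to 1.03 CPM in young mice and to 0.805, 6.95 and 3.02 CPM in the same old libraries. Both lists were thus highest in 3posI. Red cell genes, globins among them, summed to 811 CPM in 2posI, the highest of the 7, and to 177 to 336 CPM in the other 6. The other library with Igha, 3posI, had 224 CPM, within the young range of 177 to 336 CPM.

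The plot of fold changes by list sets Cxcl13 and Cxcl12 against the other listed genes.

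**Figure D4:**
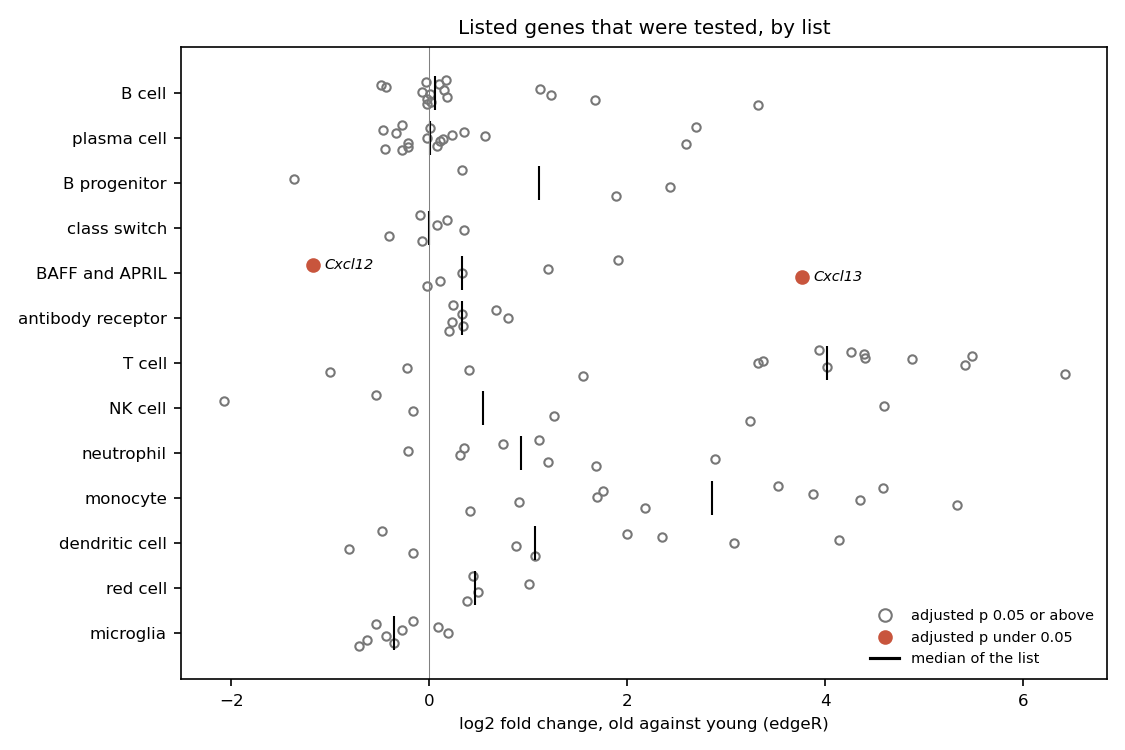
Log2 fold change of each tested gene, old against young mice, in 13 of the 14 lists of B lineage and other cell genes (the list of other antibody constant genes, of which only Ighd was tested, is not drawn; horizontal axis, edgeR); filled red points passed an adjusted p of 0.05, open points did not, and the black bar is the median of the list. Only Cxcl13 (3.76) and Cxcl12 (-1.18) passed, and the medians ran from -0.36 for microglia to 4.02 for T cells.

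The pattern across the 7 libraries was compared for Igkc, Ighm and Cd79b with the other tested genes of the 10. On the log2 CPM scale, Igkc had a Pearson r of 0.948 with Jchain, 0.911 with Igha and 0.872 with Mzb1, but of -0.34 with Cd79b and -0.198 with Cd79a. Ighm had 0.886 with Ighg2b and 0.684 with Cd79b, and 0.152 with Igkc. These values describe 7 points that share their library and its depth, and carry no test.

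Among the genes most like Igkc outside the 10 were Kif5b, Cib2, Eif3c and Synj2bp (r = 0.983 to 0.985, Spearman rho 0.964 to 1, 7 libraries). Those most like Cd79b were Ulk2, Fbxw4, Qprt, Gm43821 and RP23-438P19.11 (r = 0.985 to 0.989, rho 0.714 to 0.964). Cd79b also had r of 0.698 to 0.939 with the 9 tested microglia genes, and its closest among the B cell list was Cd37 (r = 0.970).

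For Ighm, a comparison added after its counts were seen, the most alike genes were Haao, Susd3, Cyb561a3, Khk and Fam91a1 (r = 0.983 to 0.992, rho 0.893 to 1). Among microglia genes Ighm was closest to Siglech, with r = 0.956. Siglech had 494, 695, 125 and 457 CPM in the young libraries and 613, 185 and 620 CPM in the old ones, with its lowest values in 23C and 3posI, the libraries that were also lowest for Ighm.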

How the data were processed

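RNA of Bodipy+ microglia from 3 old and 4 young mice was sequenced as non-stranded Smart-seq2 libraries. The authors trimmed reads with skewer, checked them with FastQC 0.11.5, aligned with STAR to the GRCm38 genome, and quantified genes of GENCODE m15 by RSEM (aligner and quantifier versions not given in the sources used). The deposited expected counts are not normalized, and RSEM divides reads shared by similar genes between them. The deposited TPM values are scaled within each library by gene length, and the deposited length and effective length are weighted by transcript abundance. The authors' FPKM values were not used.

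Expected counts were rounded to whole numbers for all levels and tests. Following the study's methods, a gene was kept when 1 library or more held over 10 expected counts, and chromosomes X, Y and M were left out, which left 17559 genes. In R 4.3.3, edgeR 4.0.16 gave TMM factors (0.952 to 1.05), CPM and the quasi-likelihood test with age as the only term, adjusted over all genes tested by Benjamini-Hochberg with a threshold of 0.05. Since the labels give each library its own mouse, n counts mice. The fit was checked on simulated counts, with changes set only in genes well above 0. The check does not cover genes at or near 0 in the young mice, such as Igkc and Igha. Annotation and sequences came from GENCODE vM21, in which 224 of the 50686 gene identifiers were not found. Transcript shares were computed from the deposited length and vM21 transcript lengths. Exact binomial 95% intervals and a limit of 3 counts for a count of 0 were used.

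The 10 genes and all gene lists were chosen with earlier results of these data known. Lists covered other antibody constant genes, B cells, plasma cells, B progenitors, class switching, BAFF and APRIL with chemokines, antibody receptors, 6 blood cell types and microglia. Named were the 10 genes, every listed gene past the threshold or else the 3 of a list with the highest mean CPM, the 5 most counted variable segments per locus and the leading one of each library, and the 5 genes most correlated with Igkc and with Cd79b. Other genes were named after their values were seen, and a few listed or correlated genes are not reported here. Alternatives were limma-voom (limma 3.58.1), DESeq2 1.42.0, other scaling factors and filters, an effective length offset, other added counts, TPM, and each library left out in turn.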

Additional observations from a re-analysis of the deposited data

Results flagged for a closer look

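In 8 of 47 genes examined, 1 young library stood away from its group, with a gap to its nearest neighbour that, divided by the range of the 4, exceeded Dixon's 95% critical value of 0.829, where chance gives about 1 in 20, or 2.35. That rate holds for independent, normally distributed values. Some of these genes are near 0 or vary together, so no excess over chance is read from the 8. For Mzb1 this quotient was 1, from 3 counts in 29C and 0 in the others, and for Iglc2 it was also 1, from 1 count in 23C. The quotient is always 1 where all other libraries are at 0. For Cxcl13 it was 0.859, with 29C highest at 4.15 CPM, still below the lowest old library at 20.8 CPM. For Blnk it was 0.871, with 23C lowest at 180 CPM. Among genes of other cells it was 0.862 for Fn1, 0.856 for Hba-a1, 0.898 for S100a8 and 0.849 for S100a9. Groups of 3, as the old mice are, were not examined.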

How the results depend on the processing

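Depth limits Mzb1, Cd79a and Ighg2b, which rest on few counts, and 3 old mice limit all comparisons. Depth also limits the variable segments, mainly outside 2posI and 3posI. Those 2 libraries had 817 and 155 kappa and 307 and 103 heavy counts, and the others at most 7 kappa and 1 heavy. No paired analysis was possible because each library is a different mouse and the labels link no old mouse to a young one. The genes past the threshold, 141 in all, were 1403 with DESeq2, 288 without a filter and 213 with the effective length offset, and 1 to 159 with 1 library left out. Of these calls 70.9% were higher in old mice, against 53.3% with DESeq2 and 54.5% without a filter. The other antibody and B lineage genes past it, 2 in all, were 1 with limma-voom, 8 with DESeq2 and 1 with chromosomes X, Y and M kept, and 0 to 2 with 1 library left out. Markers of other blood cells, 0 in all, were 1 with limma-voom, 8 with DESeq2, 6 without a filter, 2 with filterByExpr and 1 with the effective length offset, and 0 to 1 with 1 library left out. Of the 10 genes, 7 had a higher mean in old mice and 2 did not overlap. With filterByExpr, which removed Igha, Jchain and Mzb1, these were 4 and 1, and with 1 library left out 7 to 8 and 2 to 4. The number without overlap was 4 without 3posI and 4 without 4posI. The log2 ratio of summed antibody constant levels was 0.74, and it was 8.27 for the kappa gene alone, 8.91 for variable segments alone and 0.15 to 1.11 with 1 library left out. The log2 ratios of Igkc (6.22 to 9.21), Igha (7.70 to 10.06) and Jchain (3.90 to 6.52) stayed above 0 with each library left out. No value changed direction among those past the threshold.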
